A study of Mus musculus with 6 samples.

Results

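The 6 livers of this array study came from mice whose numbers fall into a lower and a higher series. B253, B256 and B267 are numbered in the two-hundreds, and B302, B304 and B305 in the three-hundreds. The series were taken from the number in each sample title alone, so 3 of the 6 arrays stand on each side, and 19938 named genes were compared between them. B253, B304 and B305 were Lkb1KOlivad mice (KO), which are Lkb1 fl/fl;TTR-CreTam mice on the FVB/N background. B256, B267 and B302 were Cre-negative Lkb1 fl/fl littermate controls (WT). In the KO mice an inducible Cre recombinase under the hepatocyte-specific transthyretin promoter removes Lkb1 from hepatocytes after tamoxifen, and the other cells of the liver keep the gene. All 6 mice were adult females that had been injected with tamoxifen and fasted. Both series hold both genotypes, but unevenly: the two-hundreds have 1 KO and 2 WT mice, and the three-hundreds have 2 KO and 1 WT mice. The sources used here do not say whether a series is a litter, a cohort or a day of work, so the numbers are treated as numbers only. One array was made per mouse, so the spread below is the spread between mice.

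A fasted liver oxidizes fatty acids, makes ketone bodies and glucose, and keeps secreting plasma proteins and lipoproteins, while the synthesis of fatty acids and cholesterol is held low. Sterol synthesis and fatty acid synthesis are driven by the Srebp transcription factors, fatty acid oxidation by Ppara, and the folding capacity of the secretory pathway by the unfolded protein response. The liver also holds resident macrophages (Kupffer cells) and sinusoidal endothelial cells beside its hepatocytes.

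Genotype was kept as a block, so that each value below is a log2 difference, two-hundreds minus three-hundreds, from a limma fit with terms for genotype and series. At this size, no gene reached an adjusted p under 0.05: 0 of 19938 were higher (0%) and 0 lower (0%), and the smallest adjusted p was 0.268. The methods' t-test, which ignores genotype, also called 0 genes after Benjamini-Hochberg adjustment. At an unadjusted p under 0.05, called the nominal threshold here, 1332 genes (6.68%) were higher in the two-hundreds and 831 (4.17%) were lower in limma, so that 61.6% of them were higher. The methods' t-test gave 767 higher and 984 lower (43.8% higher), and centring each array on its median gave 1694 and 600 (73.8% higher). The 3 values of the two-hundreds lay all above the 3 values of the three-hundreds for 1451 genes (7.28%) and all below them for 1779 (8.92%). After cyclic loess normalization, which takes out a trend with brightness described further on, 1071 genes (5.37%) were higher and 685 (3.44%) lower at the nominal threshold, and 1503 (7.54%) were higher and 1309 (6.57%) lower without overlap. The median difference over all genes was -0.02 in the deposited values. The exact permutation test of the series within genotype has 9 arrangements and cannot go below p = 0.111, so it cannot reach 0.05 for any gene. Every gene and list below is therefore described by its values, and none of the differences passed the adjusted test.

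The arrays were alike in scale (upper quartile of 6.46 to 6.59 over all probe sets), and pairs of arrays correlated at 0.982 to 0.990 across genes. B302, the only WT mouse of the three-hundreds, stood farthest out on the first principal component (30.3, with the other 5 mice between -16.5 and 5.4), which held 30.4% of the variance. Stk11 (probe set 10364683), which encodes Lkb1, was 6.52, 8.24 and 8.13 in B253, B256 and B267, and 7.96, 6.42 and 6.48 in B302, B304 and B305. The levels follow the genotype labels in both series. Hepatocyte markers were present at log2 levels of 8.74 to 12.60 (17 genes), and the 15 pancreas markers measured lay between 3.30 and 5.93.

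In the deposited values the cholesterol pathway had the largest share of members whose series did not overlap (12 of 20), and the promoters of its 4 members with the smallest p are shown for the sequence they have in common. Sterol-regulated promoters are known for a sterol regulatory element and for the CCAAT box, which binds the cofactor Nf-y. The 250 bases before the annotated start are given 5′ to 3′ on the strand of the gene, from RefSeq on build GRCm38.p6, with matches to CCAAT or its complement ATTGG in capitals. Tm7sf2 lies at chr19:6067851-6068100 (minus strand), Ebp at chrX:8193513-8193762 (minus), Mvd at chr8:122443423-122443672 (minus) and Pmvk at chr3:89454291-89454540 (plus).
Tm7sf2: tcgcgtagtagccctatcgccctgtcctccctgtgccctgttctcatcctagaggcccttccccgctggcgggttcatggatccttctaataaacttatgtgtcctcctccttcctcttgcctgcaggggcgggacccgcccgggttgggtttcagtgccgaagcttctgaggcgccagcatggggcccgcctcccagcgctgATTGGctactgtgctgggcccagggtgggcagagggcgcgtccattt
Ebp: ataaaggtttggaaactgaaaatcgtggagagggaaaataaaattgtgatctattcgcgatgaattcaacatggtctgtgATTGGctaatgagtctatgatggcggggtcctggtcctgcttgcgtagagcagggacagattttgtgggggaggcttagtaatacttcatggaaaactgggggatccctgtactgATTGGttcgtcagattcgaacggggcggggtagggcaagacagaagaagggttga
Mvd: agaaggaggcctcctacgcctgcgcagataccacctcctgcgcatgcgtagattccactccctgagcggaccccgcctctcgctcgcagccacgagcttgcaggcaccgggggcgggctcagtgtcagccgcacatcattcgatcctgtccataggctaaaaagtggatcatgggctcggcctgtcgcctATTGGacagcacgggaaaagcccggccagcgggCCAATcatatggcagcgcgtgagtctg
Pmvk: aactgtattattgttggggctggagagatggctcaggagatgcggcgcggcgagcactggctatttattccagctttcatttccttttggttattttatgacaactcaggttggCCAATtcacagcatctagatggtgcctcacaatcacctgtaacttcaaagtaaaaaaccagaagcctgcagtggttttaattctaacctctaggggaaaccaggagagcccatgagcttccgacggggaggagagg
Of the 20 measured members, 16 had a promoter in the table, and 15 of these held CCAAT on either strand. Among 32536 promoter windows of the same length, which can hold several starts of a gene, 33.8% did. The list was chosen as a known pathway, so this share describes its genes and is no result about the series. The letters TCACNCCAC, searched on both strands as a sterol regulatory element, were found in 1 of the 16 (Hmgcs1) and in 1.04% of all windows. Pmvk has 2 annotated starts, of which the outermost is shown.

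Cholesterol synthesis was higher in the two-hundreds across most of the pathway, with the largest values in a single mouse. The median difference of the 20 members measured was 0.45, 12 of them did not overlap between the series and were higher (0 lower), and 6 were higher at an unadjusted p under 0.05. After cyclic loess 6 did not overlap and 4 were past the nominal threshold, a smaller share without overlap than that of glycolysis (4 of 10 higher) or of ribosomal proteins (21 of 54 lower). Sqle, which makes squalene epoxide, was 6.79, 5.99 and 8.96 in B253, B256 and B267, and 5.27, 5.95 and 5.42 in B302, B304 and B305. Its difference was 1.66 (adjusted p = 0.456 from limma). Hmgcs1, which makes the precursor of mevalonate, was 7.27, 6.90 and 9.33 in the two-hundreds and 6.19, 6.69 and 5.98 in the three-hundreds. Both genes were far higher in B267 than in any other mouse, while B256, a WT mouse of the same series, lay close to the three-hundreds. Tm7sf2, a sterol reductase, was more even, at 7.63, 7.21 and 7.52 against 6.86, 6.86 and 6.50 (difference 0.73, standard error 0.17). Mvd, the mevalonate diphosphate decarboxylase, was 5.65, 5.50 and 6.01 against 5.41, 5.03 and 4.97. Ebp, a sterol isomerase, and Pmvk, the phosphomevalonate kinase, differed by 0.37 and 0.30 and did not overlap either. Averaged over the list, B267 stood 1.14 log2 units above the mean of the 6 mice, B253 0.09 above it, B256 0.20 below it and the three-hundreds 0.31 to 0.37 below it. Without B267 the median difference was 0.28 and 9 members were higher at the nominal threshold. Without B256 it was 0.67, with 15 members higher, and without B253 it was 0.75, with 2 members higher.

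De novo lipogenesis differed less, but its best separated gene had the smallest p of all 19938. Scd1 (probe set 10467979), the desaturase that makes oleate, was 9.74, 9.38 and 9.59 in the two-hundreds and 8.39, 8.68 and 8.48 in the three-hundreds. Its difference was 1.13 (standard error 0.13, adjusted p = 0.268 from limma), with all 3 mice of one series above all 3 of the other. Among the 21 members, the median was 0.23, 7 did not overlap and were higher, and 6 were higher at the nominal threshold. These were Scd1, Fasn, which builds palmitate (difference 0.46), Gpam, the first acyltransferase of glycerolipid synthesis (0.46), Acly, which supplies acetyl-CoA (0.69), Acaca, which makes malonyl-CoA (0.56), and Me1, a source of NADPH (0.47). Srebf1, which encodes the factor that drives the program, differed by 0.01 with overlapping series. The desaturase genes Fads1 and Fads2 differed by -0.02 and 0.03. Thrsp, a lipogenic response gene, was 10.08 in B267 and 7.78 to 8.63 in the other 5 mice.

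**Figure D1:**
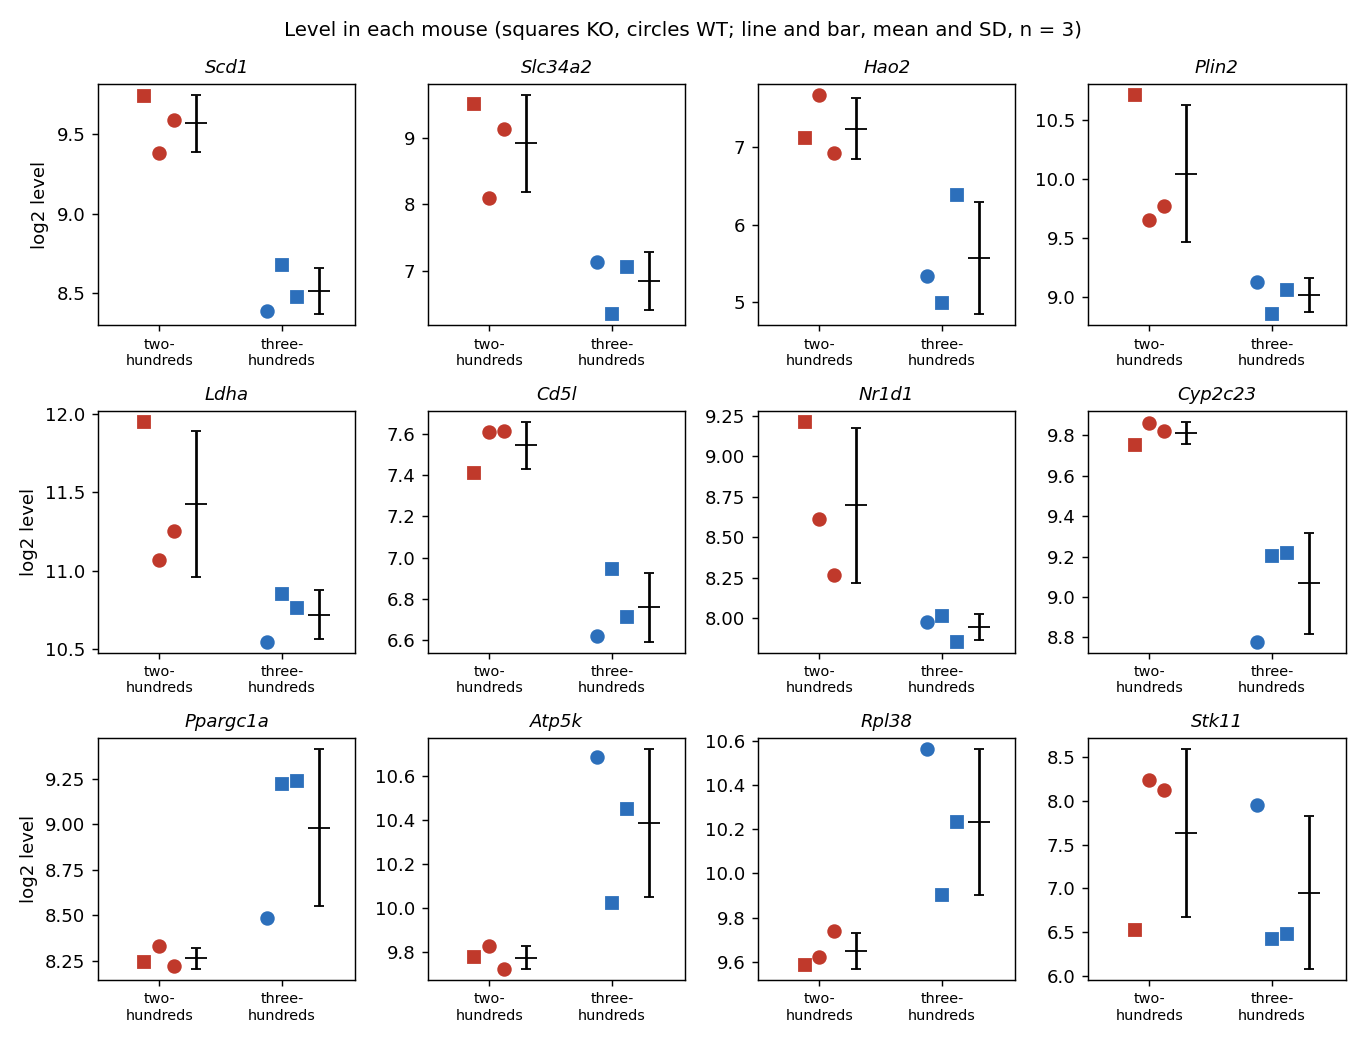
Log2 level of 12 genes in each mouse (y axis), with the two-hundreds in red and the three-hundreds in blue, KO mice as squares and WT mice as circles, and the mean and SD of each series (n = 3) beside the points; each panel has its own y range that does not start at 0. Scd1, Slc34a2, Hao2, Plin2, Ldha, Cd5l, Nr1d1 and Cyp2c23 were higher in all 3 mice of the two-hundreds, Ppargc1a, Atp5k and Rpl38 were lower in all 3, and Stk11 follows genotype.

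Genes of fat use in fasting were also higher in the two-hundreds. Of 33 measured genes of fatty acid oxidation and other Ppara targets, 10 were higher at the nominal threshold and 0 lower, and 9 were higher without overlap. Over all genes 6.68% were higher at that threshold and 7.28% were higher without overlap. The list median was 0.16, beside 0.14 in the brightest of 10 groups of genes described further on. After cyclic loess it was 0.08, with 7 members higher and 0 lower at the nominal threshold, against 5.37% of all genes higher. Acaa1b, a peroxisomal thiolase, was 7.70, 7.70 and 7.66 against 6.72, 7.17 and 7.21. Slc25a20, the carnitine-acylcarnitine carrier of mitochondria, was 9.53, 9.36 and 8.99 against 8.52, 8.90 and 8.77. Neither gene overlapped between the series, and their differences were 0.73 and 0.68. Acadvl and Acadl, acyl-CoA dehydrogenases of long chains, differed by 0.54 and 0.44, and Ehhadh, the peroxisomal bifunctional enzyme, by 0.64. Plin2, which coats lipid droplets, was 10.72, 9.65 and 9.77 against 9.13, 8.85 and 9.06 (difference 1.17), with KO mouse B253 the highest. The list median was 0.36 between the KO mice and 0.10 between the WT mice, and this gap was not tested. Ketone synthesis, with 4 genes measured, had the largest median of the 52 lists (0.65), and 3 of its members were higher at the nominal threshold. Acat1, the mitochondrial acetoacetyl-CoA thiolase, was 10.83, 10.54 and 10.91 against 10.05, 10.43 and 10.38. Bdh1, which makes 3-hydroxybutyrate, and Slc16a1, a carrier of ketones and lactate, differed by 0.86 and 0.75, but their series overlapped.

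Genes of glucose handling leaned to the two-hundreds. Differences were above 0 for 8 of 10 in glycolysis, 12 of 16 in glycogen metabolism and 12 of 15 among gluconeogenesis and Foxo1 targets. Bright genes in general leaned the same way, with a median of 0.14 in the brightest of 10 groups described further on. Of 10 measured genes of glycolysis and glucose entry, 4 were higher at the nominal threshold, with a list median of 0.19. Ldha, lactate dehydrogenase A, was 11.95, 11.07 and 11.25 against 10.55, 10.85 and 10.76, a difference of 0.88. Gckr, the regulator of glucokinase, and Pklr, the liver pyruvate kinase, differed by 0.44 and 0.56 without overlap. Gluconeogenesis and Foxo1 targets had a median of 0.20 (0.07 without B305). At the nominal threshold 1 gene was higher, a share close to the 6.68% of all genes, and 1 was lower. The one higher was Mmd2 (0.92), and the one lower was Ppargc1a, the coactivator of the fasting program, at 8.24, 8.33 and 8.22 against 8.48, 9.23 and 9.24. Its 2 highest values were those of KO mice B304 and B305, with a KO difference of -0.99 and a WT difference of -0.21. Igfbp1, a secreted Foxo1 target, was lowest in B267 (9.39) and highest in B256 (10.99), both of the two-hundreds. Of 16 genes of glycogen metabolism, 2 were higher at the nominal threshold, against 6.68% of all genes. They were Phkb (0.40), a subunit of phosphorylase kinase, and Pygl (0.29), the liver glycogen phosphorylase. After cyclic loess 1 was higher, a share close to the 5.37% of all genes. The median of that list was 0.14, or 0.06 after cyclic loess.

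**Figure D2:**
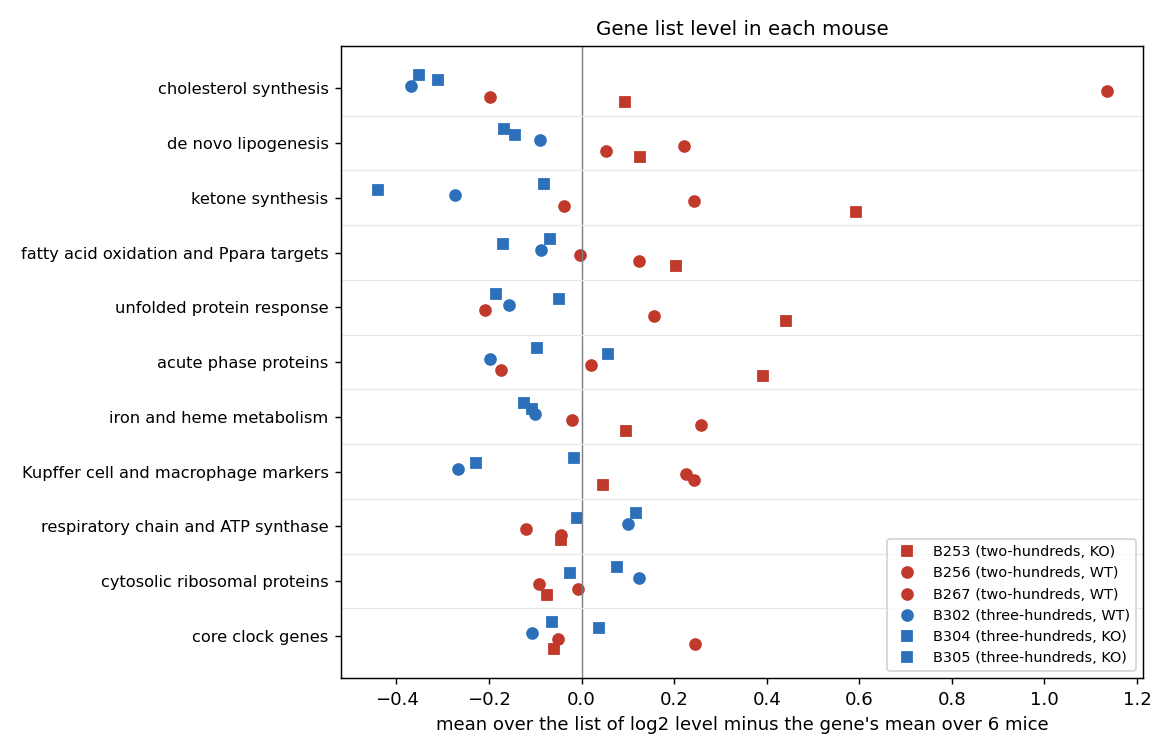
Mean over each of 11 gene lists of the log2 level minus the mean of that gene over the 6 mice (x axis), with 1 point per mouse, the two-hundreds in red, the three-hundreds in blue, KO mice as squares and WT mice as circles. The cholesterol list reaches 1.14 in B267, and the unfolded protein response list runs from -0.21 in B267 to 0.44 in B253, both of the same series.

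The unfolded protein response was higher in the two-hundreds by list, but the 3 mice of that series differed widely. Of 30 members, 29 had a difference above 0, 11 were higher at the nominal threshold and 4 did not overlap, with a median of 0.32. Creld2, a secreted target of the response, was 9.96, 9.29 and 7.87 against 8.02, 8.10 and 7.75 (difference 1.30). Hspa5, the main chaperone of the endoplasmic reticulum, was 11.81, 11.59 and 11.05 against 10.94, 11.17 and 10.95. In both genes B253 and B256 stood above the three-hundreds, whereas B267 lay within their range. Sel1l, of the degradation complex, was 9.70, 9.06 and 8.82 against 8.59, 8.80 and 8.51 and did not overlap. Xbp1, the transcription factor of the response, differed by 0.41 and P4hb, a disulfide isomerase, by 0.37, also without overlap. Without B253, the KO mouse with the highest list mean (0.44), the median was 0.13 and 1 member was higher at the nominal threshold. Without B267 it was 0.40, with 17 members higher and 20 not overlapping. After cyclic loess 6 members were past the nominal threshold and 3 did not overlap, against 5.37% and 7.54% of all genes on the higher side. The Atf4 targets of the integrated stress response had a median of 0.00 (2 of 26 higher), and heat shock proteins one of -0.04 (1 of 21 higher, Hspb8). Both shares were close to the 6.68% of all genes higher in the deposited values.

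Among secreted proteins, 7 of 33 acute phase proteins, 5 of 30 proteins of coagulation and complement and 3 of 20 of apolipoproteins and lipoprotein assembly were higher at the nominal threshold, and 0 of each were lower. After cyclic loess these counts were 3 of 33, 2 of 30 and 3 of 20. Among all genes, 6.68% were higher at that threshold in the deposited values and 5.37% after cyclic loess. The share of coagulation and complement after loess was thus close to that of all genes. In the deposited values the list medians, in the same order, were 0.21, 0.23 and 0.19. Without B253 the coagulation and complement median was 0.14 and that of apolipoproteins 0.10, and quantile normalization gave 0.03 for apolipoproteins. Fga, the fibrinogen alpha chain, lay between 10.65 and 11.15 in the two-hundreds and between 10.16 and 10.60 in the three-hundreds. Steap4, a metalloreductase induced in inflammation, was 10.37, 8.64 and 9.03 against 8.42, 8.35 and 7.99. B253 was the highest mouse for both, and the acute phase list averaged 0.39 above the 6-mouse mean in B253 and 0.18 below it in B256. F11, coagulation factor XI, differed by 0.63 and Cfb, complement factor B, by 0.38, both without overlap. Pltp, which transfers phospholipids between lipoproteins, lay between 7.83 and 8.16 in the two-hundreds and between 7.08 and 7.43 in the three-hundreds (difference 0.79), and Lpl, lipoprotein lipase, was 5.66, 5.77 and 5.75 against 4.96, 5.17 and 5.29. Serpina7, the thyroxine-binding globulin, was 6.04, 5.06 and 6.41 against 4.67, 4.94 and 4.63.

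Iron and heme genes had a median of 0.31 over 27 members, with 7 higher and 1 lower at the nominal threshold and 8 higher without overlap. After cyclic loess, 3 were higher and 2 lower at that threshold and 3 were higher without overlap, and without B256 the median was 0.17. Hfe, a sensor of transferrin iron, was 6.66, 6.44 and 6.58 against 5.81, 6.22 and 5.99 (difference 0.62). Hjv, the hemojuvelin coreceptor, differed by 0.46, Trf, transferrin, by 0.33, Tfr2, the second transferrin receptor, by 0.38, and Urod, an enzyme of heme synthesis, by 0.46. None of these overlapped. Hamp, which encodes the iron hormone hepcidin, differed by -0.19 with overlapping series, and its near copy Hamp2 by -0.51 at an unadjusted p of 0.0151. The arrays may not tell these closely related genes apart.

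Drug and bile acid metabolism showed single genes rather than whole lists. Of 37 cytochrome P450 genes, 8 were higher and 1 lower at the nominal threshold, with a median of 0.11, but after cyclic loess 2 were higher, a share close to the 5.37% of all genes. Cyp2c23, an arachidonate epoxygenase, was 9.75, 9.86 and 9.82 against 8.78, 9.20 and 9.22 (difference 0.80), and Cyp1a2, which clears caffeine, differed by 0.34. Cyp2a22 was 6.61, 6.28 and 8.59 against 5.71, 5.87 and 5.26, again with B267 the highest. Cyp2c38 was lower in the two-hundreds (-0.43). Genes of the Cyp2c and Cyp2a families are close in sequence, so their probe sets may share signal. Of 35 phase II conjugation enzymes, 1 (Ugt3a1, 0.56) was higher at the nominal threshold, a smaller share than the 6.68% of all genes. Among 26 genes of bile acids, 4 were higher and 1 lower. The 4 were Slc27a5, which activates bile acids (0.47), Amacr, a racemase of their side chain (0.59), Abcg5, a sterol exporter (0.59), and Abcc3, a basolateral exporter (0.53), and the one lower was Cyp7b1 (-0.45), an oxysterol hydroxylase. Cyp7a1, the rate-limiting enzyme of bile acid synthesis, was 8.48, 9.13 and 10.66 against 9.87, 10.33 and 10.20, with overlap. Of 37 genes of amino acid catabolism, 8 were higher at the nominal threshold and 0 lower (median 0.18), or 6 higher and 1 lower after cyclic loess. Amdhd1 of histidine breakdown differed by 0.54 and Bhmt2, a methyltransferase, by 0.56. The 11 urea cycle genes had a median of 0.09, with 0 past the nominal threshold. Of 26 amino acid transporters, 6 were above it, led by Slc38a1 (0.66), a glutamine carrier, and 1 below it, Slc43a1 (-0.45).

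**Figure D3:**
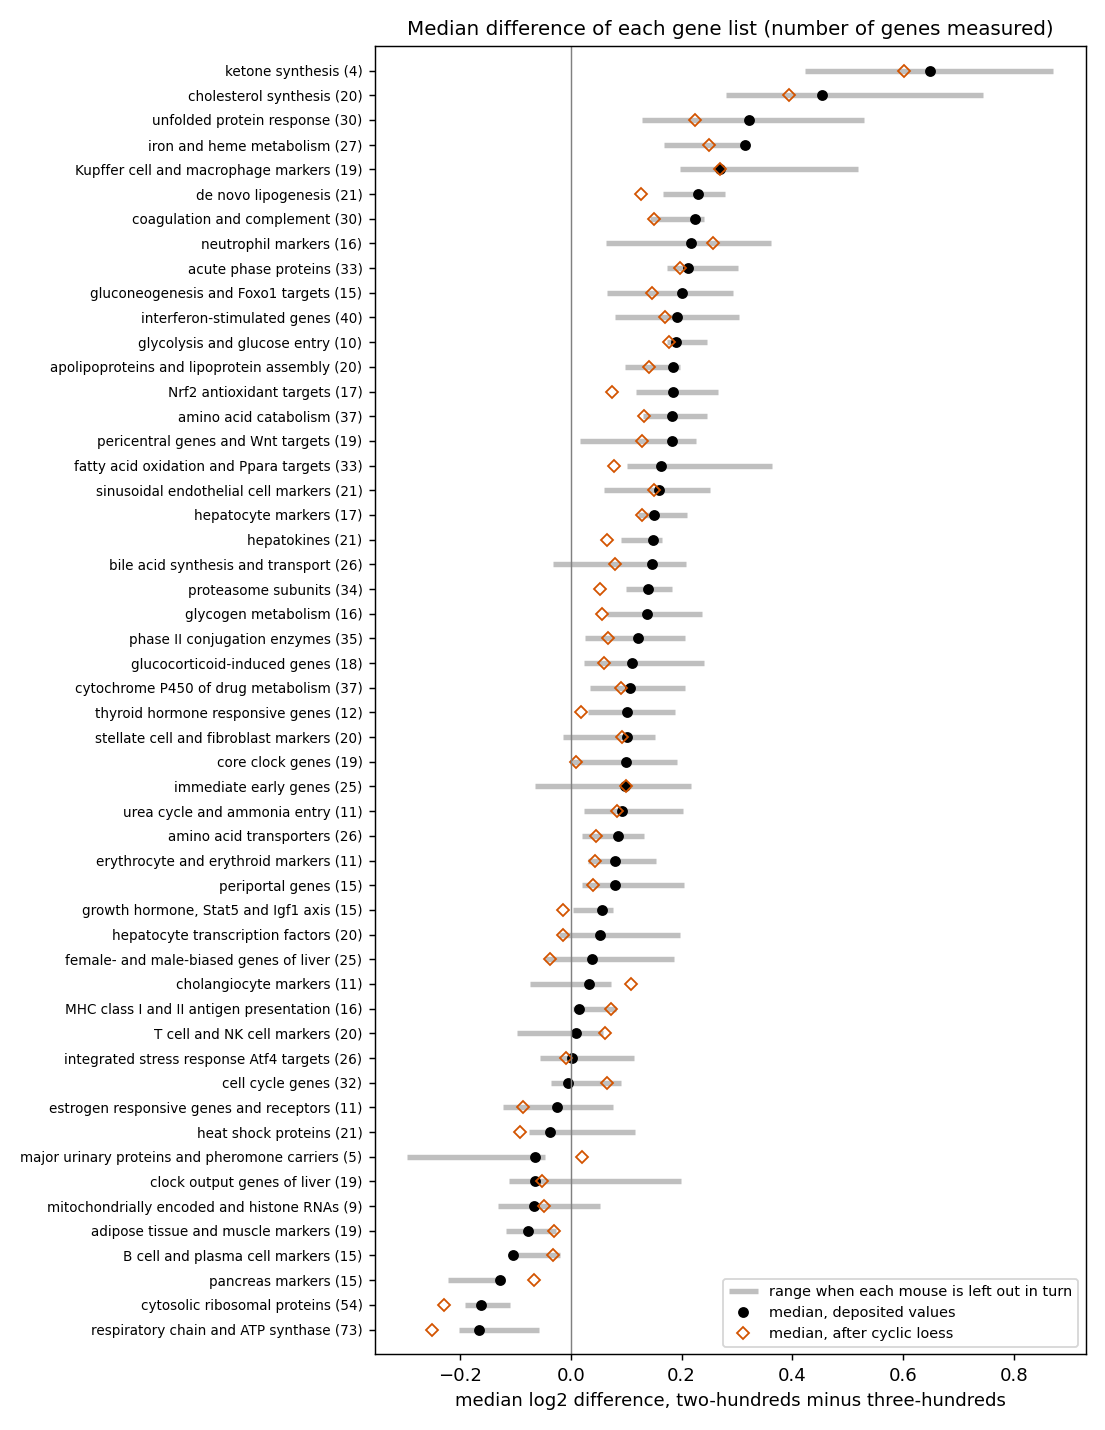
Median log2 difference, two-hundreds minus three-hundreds (x axis), of 52 gene lists with the number of genes measured in parentheses; black points are deposited values, open diamonds are values after cyclic loess normalization, and grey bars are the range of medians when each mouse is left out in turn. Ketone synthesis (0.65) and cholesterol synthesis (0.45) lie highest, and ribosomal proteins (-0.16) and the respiratory chain (-0.17) lowest.

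Kupffer cell and macrophage markers were higher in the two-hundreds. Of 19 measured, 7 were higher at the nominal threshold and 0 lower, 6 did not overlap, and the median was 0.27. Over all genes 6.68% were higher at that threshold and 7.28% were higher without overlap. Cd5l, a secreted scavenger protein of macrophages, was 7.41, 7.61 and 7.61 against 6.62, 6.94 and 6.71 (difference 0.79, standard error 0.14). Csf1r, the receptor on which macrophages depend, was 6.94, 6.93 and 7.04 against 6.27, 6.61 and 6.56. Cd68, Clec4f and Adgre1, further markers of these cells, differed by 0.52, 0.62 and 0.62, and their series did not overlap either. The markers Ccr2 and Itgam of recruited monocytes differed by 0.06 and -0.02. In whole liver, fewer cells of a type and less RNA per cell cannot be told apart. Of 21 sinusoidal endothelial markers, 5 were higher and 1 lower at the nominal threshold, and 8 were higher and 0 lower without overlap. The share without overlap (38.1%) was larger than that of the Kupffer markers (31.6%). Tek and Kdr, receptors of the vessel wall, differed by 0.57 and 0.42 without overlap, whereas Lyve1 was lower (-0.60), with its lowest value in B253 (7.21). The list mean was highest in B256 (0.31 above the 6-mouse mean). Neutrophil markers had a median of 0.22 with 3 of 16 higher, but the median was 0.06 without B267 and 0.36 without B256. Interferon-stimulated genes had one of 0.19 (0.08 without B267 and 0.30 without B256) with 3 of 40 higher, a share close to the 6.68% of all genes. T and NK cell markers had one of 0.01 with 0 of 20 higher and 2 lower (Eomes and Ncr1), against 4.17% of all genes lower. Both genes are dim, at 3.80 to 4.65 and 3.26 to 3.97, and dim genes in general leaned lower, as described further on. After cyclic loess 1 of these markers was higher and 1 lower. The hepatocyte marker list itself had a median of 0.15, with 6 of 17 higher without overlap, and the share of each cell type in these differences was not tested.

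Lower in the two-hundreds were genes of the respiratory chain and of the ribosome. Of 73 genes of the respiratory chain and ATP synthase, 13 were lower and 1 higher at the nominal threshold, 16 were lower without overlap, and the median was -0.17. Atp5k, a small membrane subunit of ATP synthase, was 9.78, 9.83 and 9.72 against 10.69, 10.02 and 10.45. Ndufc1, of complex I, was 7.04, 7.27 and 7.29 against 7.79, 7.69 and 7.91, and Cox5b, of complex IV, was 10.36, 10.26 and 10.30 against 10.70, 10.77 and 10.71. The one gene higher was Sdhd (0.46), of complex II. Of 54 cytosolic ribosomal proteins, 10 were lower and 1 higher at the nominal threshold, 20 were lower without overlap, and the median was -0.16. Rpl38 was 9.59, 9.62 and 9.74 against 10.56, 9.90 and 10.23 (difference -0.68), and Rps29 was 11.08, 11.14 and 11.11 against 11.71, 11.31 and 11.48. Rps2 was the one gene higher (0.55). B302 had the highest value of Atp5k, Rpl38 and Rps29, and without it the 2 medians were -0.06 and -0.11. Ribosomal protein genes have many near-identical copies in the genome, so their probe sets are uncertain. Of 34 proteasome subunits, 3 were higher and 0 lower, a share close to the 6.68% of all genes, and 1 was higher after cyclic loess.

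Most core clock genes overlapped between the series, and several were spread widely within the two-hundreds. Of 19 measured, Nr1d1, a repressor of Bmal1 (Arntl), was higher without overlap, at 9.21, 8.61 and 8.26 against 7.97, 8.01 and 7.86. Tef, a transcription factor of clock output, was lower (-0.40, unadjusted p = 0.0240), and the other 17 were not past the nominal threshold. Per2 was lower without overlap, by a difference of -0.11. Arntl was 6.95, 6.55 and 5.14 in B253, B256 and B267, and 5.75, 5.72 and 5.85 in the three-hundreds. Nfil3, a repressor of clock output, was 9.64, 9.52 and 7.41 against 7.73, 8.24 and 8.02. For both genes the three-hundreds lay close together, between B267 and the other mice of the two-hundreds. B267 also had the lowest Clock (7.84) and Cry1 (6.41) and the highest Per3 (6.64) and Dbp (6.90) of the 6 mice. Ciart was 5.94 in B253 and 7.92 to 8.85 in the other 5 mice. The remaining members, Per1, Per2, Cry2, Nr1d2, Rora, Csnk1d, Csnk1e, Bhlhe40, Bhlhe41 and Hlf, differed by -0.21 to 0.23. The direction of 8 clock genes (Per3, Ciart, Nr1d2, Dbp, Bhlhe41, Csnk1d, Cry1 and Hlf) turned under at least 1 alternative. Without B253, which leaves the WT difference, Per3 was 0.16, Ciart 0.63 and Nr1d2 0.19.

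Hormone and zonation lists showed few genes past the nominal threshold. Of 25 sex-biased genes of liver, 3 were higher and 2 were lower, against 6.68% and 4.17% of all genes, with a median of 0.04. Besides Hao2 and the complement gene C6 (0.27), the third was A1bg (1.27), and those below were Hsd3b5 (-0.35) and Cyp7b1. The list pools female-biased and male-biased genes, so its median cannot show a shift toward either pattern. After cyclic loess 1 of the 25 was higher and 2 were lower. Onecut1, a hepatocyte transcription factor, was lower (-0.81) and Foxa3, another one, higher (0.61), both with overlapping series. None of 18 glucocorticoid-induced genes passed, and the medians of pericentral and periportal genes were 0.18 and 0.08. Of these, 4 of 19 and 2 of 15 were higher, against 6.68% of all genes. After cyclic loess the counts were 1 of 19, a share close to the 5.37% of all genes, and 2 of 15. Single mice moved both medians: the pericentral one was 0.02 without B253, and the periportal one was 0.02 without B256, 0.21 without B267 and -0.01 under quantile normalization. The 16 antigen presentation genes measured had a median of 0.015, with 9 differences above 0 and 7 below. Of these, 3 were higher and 0 lower at the nominal threshold. Among them, H2-Q10, a secreted class I molecule of liver, differed by 0.72 and Cd74, the invariant chain of class II, by 0.43, without overlap. Of 32 cell cycle genes, 1 was higher, a smaller share than the 6.68% of all genes. It was Ccnd1 (0.49), which encodes cyclin D1.

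Beyond the lists, the largest differences at an unadjusted p under 0.01 without overlap were on the higher side. Slc34a2 (probe set 10521892), a sodium-phosphate cotransporter, was 9.51, 8.10 and 9.14 against 7.14, 6.35 and 7.06, a difference of 2.14 (standard error 0.38, adjusted p = 0.268). Hao2, a peroxisomal oxidase of hydroxy acids that is expressed differently in the sexes, was 7.11, 7.67 and 6.92 against 5.34, 4.99 and 6.38 (difference 1.69). Slc17a4, an organic anion transporter, was 7.65, 8.21 and 7.84 against 6.42, 6.86 and 6.70. None of these 3 genes overlapped, and the nearest mice were B267 and B305 for Hao2. Map3k13, a stress kinase, Tvp23b, a Golgi protein, Mlec, a lectin of the endoplasmic reticulum, Dcstamp, a fusion protein of myeloid cells, and Fuca2, a fucosidase, differed by 1.19, 1.11, 1.04, 1.03 and 1.01. On the lower side Rpph1, the RNA of ribonuclease P, differed by -1.20, Apol7c by -0.85, Snrpe, a core protein of the spliceosome, by -0.84, Tsr3, which modifies ribosomal RNA, by -0.76, and Rybp, of Polycomb, by -0.69. Timm9, a chaperone of mitochondrial import, differed by -0.66, Cfap126 by -0.67, Dnajc5b by -0.63 and Hint3 by -0.63. Apol7c, Cfap126 and Dnajc5b are dim, at 3.02 to 4.60, 3.76 to 4.76 and 3.36 to 4.31, and dim genes in general leaned lower, as described below. After cyclic loess these 3 differed by -0.76, -0.59 and -0.54. By this rule 319 genes were higher and 115 lower, of which 11 and 41 were predicted genes, clone names, pseudogenes, chemosensory receptors or small RNAs and were left unnamed.

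The KO mice and the WT mice give the series difference separately, since they share no mouse. Across 19938 genes, the difference in KO mice (B253 minus B304 and B305) and that in WT mice (B256 and B267 minus B302) correlated at Pearson's r = 0.21 and Spearman's rho = 0.20 and had the same sign in 57.7% of genes. This is a description across genes, which are not independent, and it rests on 6 arrays in all. With the brightness trend below removed by cyclic loess, r was 0.13 and the same sign was found in 53.9%. By list, cholesterol synthesis differed by a median of 0.38 in KO mice and 0.75 in WT mice, Kupffer markers by 0.20 and 0.52, and the unfolded protein response by 0.53 and 0.13. De novo lipogenesis (0.28 and 0.23) and iron and heme genes (0.25 and 0.24) had close medians in the KO and the WT mice. The interaction of genotype and series had 0 genes at an adjusted p under 0.05 in limma (smallest 0.0565) and 1263 (6.33%) at an unadjusted p under 0.05, so no gene's difference was shown to depend on genotype.

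**Figure D4:**
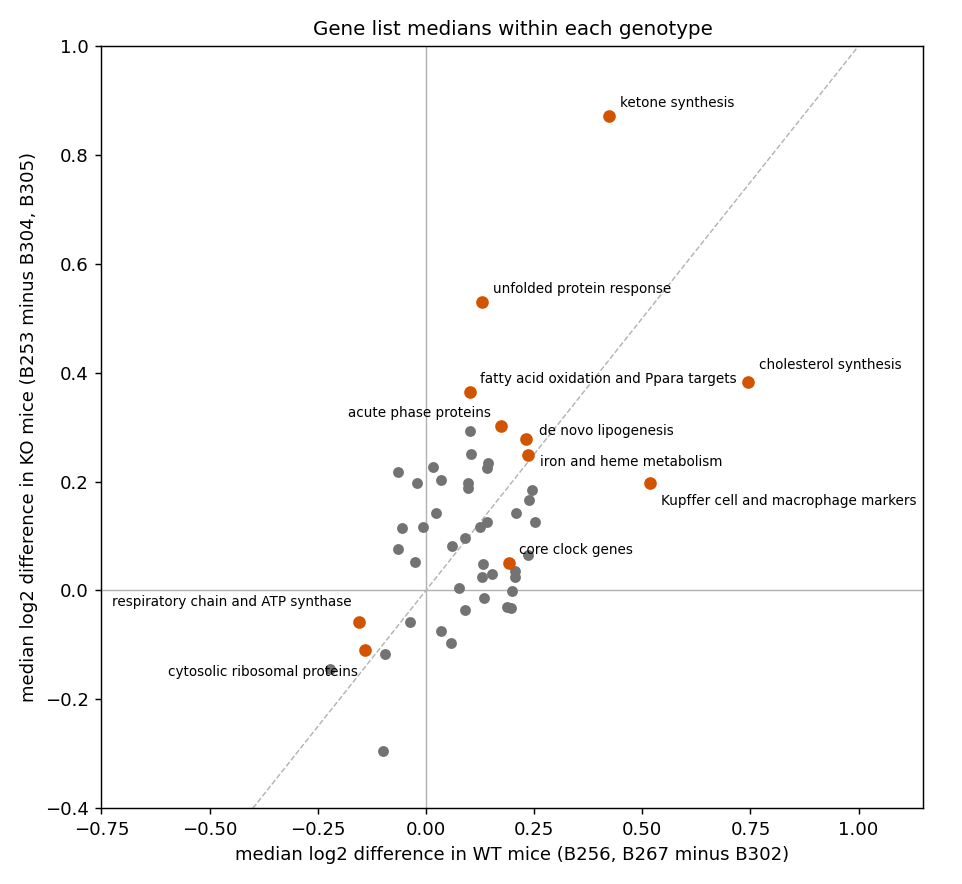
Median log2 difference of 52 gene lists between the series in WT mice (x axis) and in KO mice (y axis), with 11 lists named in orange, the others in grey and equal values on the dashed line. Cholesterol synthesis (0.75 and 0.38) and Kupffer markers (0.52 and 0.20) lie toward the WT axis, and ketone synthesis (0.42 and 0.87) and the unfolded protein response (0.13 and 0.53) toward the KO axis.

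The series difference also followed the brightness of a gene. Genes were divided into 10 groups of nearly equal number by their mean level over the 6 mice. In the dimmest group (median level 2.97) the median difference was -0.09, and 16.4% of genes were lower without overlap and 0.853% higher. In the brightest group (median level 9.01) it was 0.14, with 4.01% lower and 14.3% higher. The trend ran the same way in KO mice (-0.11 to 0.08) and in WT mice (-0.08 to 0.17). In the brightest group B302 lay 0.14 below the 6-mouse mean and B253 0.07 above it. Most liver lists hold bright genes, whose median difference is thus above that of all genes. After cyclic loess, the median of cholesterol synthesis was 0.39, of ketone synthesis 0.60, of Kupffer markers 0.27, of iron and heme genes 0.25 and of the unfolded protein response 0.23. Fatty acid oxidation then had a median of 0.08 and de novo lipogenesis of 0.13, with 7 of 33 and 5 of 21 members still higher at the nominal threshold. The respiratory chain and the ribosomal proteins, which are bright as well, lay further from 0 after loess, at -0.25 and -0.23. Scd1 was 1.05 and Slc34a2 2.03 after loess.

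**Figure D5:**
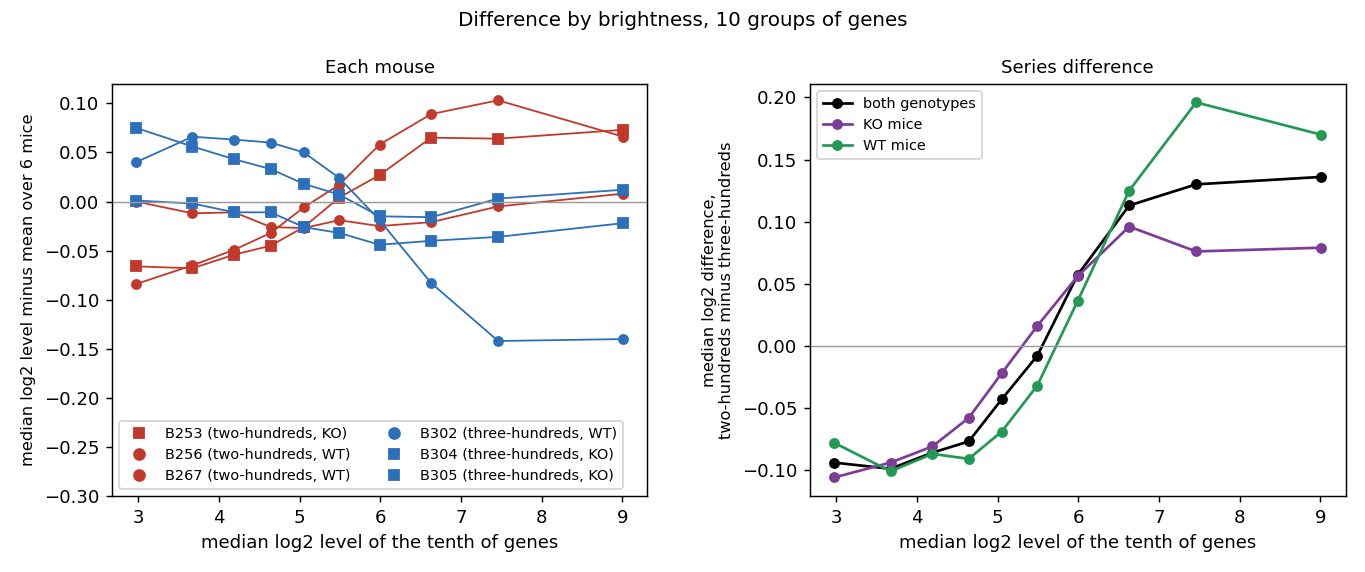
Genes in 10 groups by brightness (x axis, median log2 level of the group): at left the median of each mouse's log2 level minus the 6-mouse mean (y axis, 1 line per mouse), at right the median log2 difference, two-hundreds minus three-hundreds (y axis), in both genotypes together and in each. The difference runs from -0.09 in the dimmest to 0.14 in the brightest group, and B302 lies lowest among bright genes.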

How the data were processed

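The deposited log2 signals of 6 liver arrays, made by the authors with RMA (background correction, normalization and probe summary, run in Partek per the labels and in Expression Console and BRB-ArrayTools per the methods, with versions not given in the sources used here), were used unchanged. Labels and methods also differ in the labelling kit. Of 35556 probe sets, 21789 had 1 gene symbol in an annotation of an earlier array generation, 1621 several and 12146 none; 21698 were updated by identifier, and the brightest probe set of each of 19938 genes was kept. No detection calls or raw images were used. Precision is limited by having 6 arrays, with a median 95% interval of 0.32 to either side of a difference. limma 3.58.1 in R 4.3.3 (lmFit, eBayes, two-sided) fitted genotype and series, with 3 residual degrees of freedom and Benjamini-Hochberg adjustment over all genes, and was tested on simulated data. The series, the 52 lists and the tests were chosen with earlier results of these data known. Named were the 12 largest differences each way at an adjusted p under 0.05, filled with non-overlapping genes at an unadjusted p under 0.01; up to 3 members per list at an unadjusted p under 0.05; every core clock gene; and Stk11. Other members given in the text were chosen after their values were seen. List symbols were matched through RefSeq synonyms. Alternatives were quantile, median and cyclic loess normalization (the last chosen after seeing the data), a brightness filter, averaged probe sets, trend and robust estimation, array weights, no genotype block, the methods' t-test, a fold of 1.2, and leaving out each mouse.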

Additional observations from a re-analysis of the deposited data

How the results depend on the processing

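Of 146 single genes named, 138 kept their direction in every alternative tried and 8 clock genes did not, with 24 of 2469 values turned, and none was past an adjusted p under 0.05 in any. For the 128 genes chosen at an unadjusted p under 0.05, that choice largely fixes the direction. Within WT mice, and equally without B253, Per3 was 0.16, Ciart 0.63, Nr1d2 0.19, Dbp 0.36 and Bhlhe41 0.19. The other end of the range was without B302 for these 5, at -1.13, -2.36, -0.61, -0.55 and -0.35 in the same order. With no genotype block and in the methods' t-test Dbp was 0.042 and Bhlhe41 0.0099, and without B304 Dbp was 0.037. Under cyclic loess Bhlhe41 was 0.0098, Csnk1d -0.012 and Hlf -0.11. Cry1 ran from -0.0016 without B256 to 0.40 without B267. Hlf, at 0.0009 in the deposited values, was -0.098 under quantile normalization, -0.049 within KO mice (without B302), -0.029 without B256, -0.010 without B305 and 0.050 without B253. The adjusted counts of 0 higher and 0 lower ranged over 0 to 4 and 0 to 1 when each mouse was left out (4 higher and 1 lower without B256, 1 lower without B267) and were 0 under every other alternative. At an unadjusted p under 0.05, leaving out each mouse gave 804 to 1513 genes higher and 472 to 859 lower, lowest without B302 in both directions. The methods' t-test gave 767 higher. Without the dimmest 40% of genes, 274 were lower at the unadjusted threshold and 624 lower without overlap, with fewer genes tested. Genes without overlap numbered 2167 to 2883 higher and 2633 to 3404 lower when each mouse was left out, with fewer mice to separate. Centring each array on its median gave 1694 higher and 600 lower at the unadjusted threshold, a split of 73.8% higher against 61.6% in the deposited values. Among the 11 lists led with, de novo lipogenesis had a median of 0.13 under quantile normalization and 0.13 under cyclic loess, the respiratory chain -0.24 and -0.25, and ribosomal proteins -0.23 under loess, and the cause was not tested. Within KO mice the respiratory chain was -0.058 and fatty acid oxidation 0.36, and within WT mice Kupffer markers were 0.52. When each mouse was left out, medians ran from 0.10 to 0.36 for fatty acid oxidation (lowest without B253, highest without B302), from 0.17 to 0.32 for iron and heme genes (lowest without B256), from -0.20 to -0.058 for the respiratory chain (weakest without B302) and from 0.20 to 0.52 for Kupffer markers (highest without B253). The sign of 6 of 52 list medians was opposite under loess and of 6 under quantile normalization. Without B302 only KO mice, and without B253 only WT mice, inform the difference, so these fits equal the within-genotype values.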
